A study of Mus musculus with 27 samples.

Results

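Total RNA of *Setdb1* cKO iMEFs labelled long-term KO was compared with that of untreated *Setdb1* cKO iMEFs. These are the 3 libraries that the time point label places more than 2 weeks after 4OHT treatment and the 3 libraries with no treatment, 6 of the 27 libraries of the series. *Setdb1* cKO iMEFs are immortalized mouse embryonic fibroblasts with a conditional *Setdb1* allele, in which the drug 4-hydroxytamoxifen (4OHT) deletes the gene, and the line is a single clone picked by dilution for a good response. The long-term KO cells were given 4OHT for 4 days and then cultured without it, and another 3 libraries of the same experiment, labelled 4OHT day 5, hold the acute response and are used here as a reference. The sources used here give the same line and medium for both groups, but the files do not show that the long-term KO cells descend from the untreated cells sequenced. *Xist* RNA was found in long-term KO libraries at 3.31 to 3.67 FPKM and was at most 0.00397 FPKM in all others, and expression shifted over whole chromosomes, as described further down. The origin of the cells was not tested, and it bears on every difference given here. No library comes from untreated cells cultured for as long, so the effect of the deletion and that of long culture cannot be told apart. The labels do not say whether the 3 libraries of a group are separate cultures, and the p-values therefore measure only the spread between these libraries.

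Setdb1 is a histone methyltransferase that places trimethylation on lysine 9 of histone H3 (H3K9me3), a mark of silent chromatin. It is brought to endogenous retroviruses (ERVs), the remains of retroviral infections of the germline, by Trim28 and KRAB zinc finger proteins, which read short sequences in the element. Loss of silencing can leave viral RNA in the cell, and such RNA is sensed by receptors that switch on interferon and the genes it induces. Fibroblasts respond to interferon through receptors of the cell surface, and through Irf7 in a second wave.

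Expression is given in FPKM, the number of fragments scaled by transcript length and sequencing depth, as the authors computed it for each assembled locus. The loci of these libraries carry no gene names and were named by position. A value was found in all 9 libraries of the experiment for 19336 genes, and the 8684 that reached 1 FPKM in at least 3 libraries were tested with limma on log2(FPKM + 0.1). All log2 fold changes are on that scale, which understates the change of low genes. The deposited intervals imply 36.1 to 39.2 M fragments per library, medians over single-exon genes with quartiles from 24.1 to 42.7 M. The methods of the study state a larger number of paired-end reads per sample. Over the genes tested, the correlation of log2 values was 0.944 to 0.953 between libraries of the same group and 0.849 to 0.859 between untreated and long-term KO libraries.

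The level of *Setdb1* itself does not show the deletion. *Setdb1* (chromosome 3, 95127447 to 95161124, mm9) was at 5.95, 5.53 and 5.16 FPKM in the untreated libraries, at 4.16, 4.2 and 6.52 FPKM at 4OHT day 5, and at 7.24, 7.32 and 6.96 FPKM after long culture. All 3 libraries labelled long-term KO were above every untreated library, with a log2 fold change of 0.37 (SE 0.16, adjusted p = 0.0763, limma). An FPKM over the whole gene cannot tell whether a few exons are missing, so that this value neither shows nor contradicts a deletion, and the groups are named here as the libraries labelled long-term KO and untreated.

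The cells labelled long-term KO differed from untreated cells in many genes. Of the 8684 genes tested, 674 were called higher and 555 lower, where a call needs a 2-fold difference and an adjusted p-value below 0.05. These are 7.76% and 6.39% of the genes tested, the background against which the gene lists below are read. A fold change of at least 4 was reached by 181 genes called higher and 145 called lower, and one of at least 8 by 82 and 64. For 6365 of the genes tested, 73.3%, the long-term KO and untreated libraries did not overlap. Lack of overlap alone therefore does not set a gene apart. Against 4OHT day 5, the long-term KO libraries held 580 genes called higher and 530 called lower, 6.68% and 6.10% of the genes tested. In the acute comparison, 4OHT day 5 against untreated, 174 genes were called higher and 113 lower. The median log2 fold change over all genes tested was 0.07 in long-term KO and 0.00 at 4OHT day 5, both against the same untreated libraries.

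The genes with the highest fold changes went from near silence to clear expression, and most of them had not moved at 4OHT day 5. *Fat4*, a giant cadherin of the cell surface (chromosome 3, 38785862 to 38910905, mm9), was at 0.0285, 0.0230 and 0.0228 FPKM in untreated libraries and at 9.21, 8.86 and 9.27 FPKM in long-term KO. At 4OHT day 5 it was at 0.0234, 0.0331 and 0.0342 FPKM, and the long-term log2 fold change was 6.21 (SE 0.11, adjusted p = 7.47e-09, limma). The long-term group thus lay far above both other groups, which overlapped each other. *Srd5a2*, a steroid reductase, went from 0.100, 0.0947 and 0.0712 FPKM to 14.2, 12.3 and 14.0 FPKM, a log2 fold change of 6.17. *Cbr2*, a carbonyl reductase, went from 0.617, 0.609 and 0.457 FPKM to 28.2, 28.0 and 27.3 FPKM, a log2 fold change of 5.41. Among these 12 genes are also *Cd24a*, a surface glycoprotein, *Eya4*, a transcriptional coactivator, *Thbd*, the thrombin receptor thrombomodulin, *Unc5c*, a netrin receptor, and *Tox*, a DNA-binding HMG-box protein. Their log2 fold changes were 5.08, 4.75, 4.5, 4.47 and 4.24. *Cryab*, a small heat shock protein, had already risen at 4OHT day 5, where it was at 4.61, 4.81 and 4.34 FPKM against 1.76, 1.49 and 1.37 FPKM in untreated cells. It reached 30.5, 29.4 and 30.9 FPKM in long-term KO, a log2 fold change of 4.22.

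**Figure D1:**
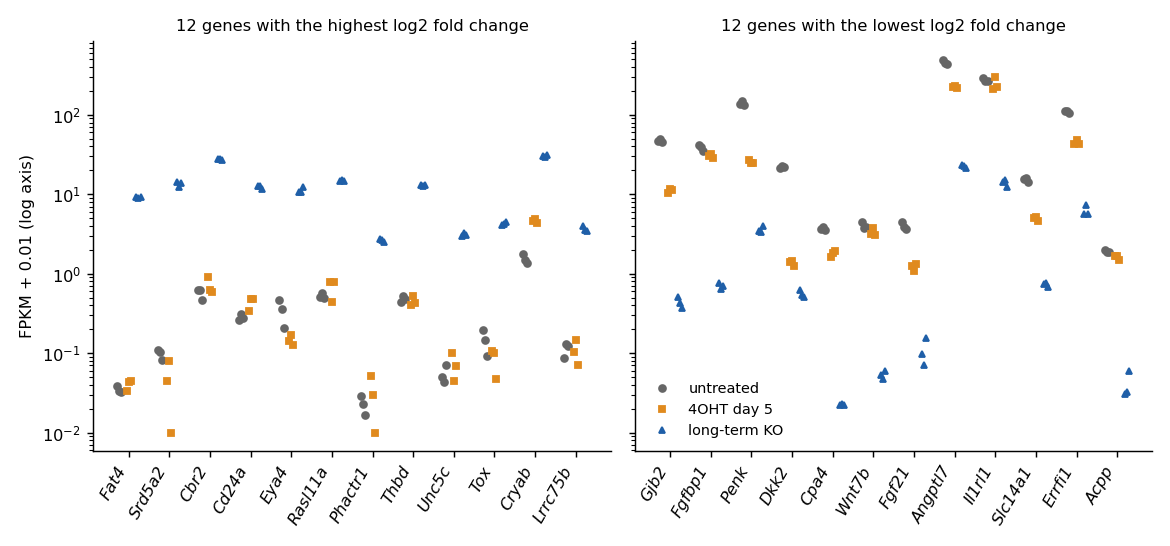
FPKM + 0.01 on a log axis for the 12 genes with the highest (left) and the 12 with the lowest (right) log2 fold change of long-term KO against untreated; each point is 1 library, with 3 libraries per group. The long-term KO points of *Fat4* lie at 8.86 to 9.27 FPKM, those of *Gjb2* at 0.359 to 0.498 FPKM, and several of the lowest genes, such as *Gjb2*, *Penk* and *Dkk2*, are already lower at 4OHT day 5.

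The genes with the lowest fold changes follow. *Gjb2*, the gap junction protein connexin 26 (chromosome 14, 57717439 to 57723539, mm9), was at 46.7, 49.7 and 46.2 FPKM in untreated cells, at 10.3, 11.8 and 11.2 FPKM at 4OHT day 5, and at 0.498, 0.417 and 0.359 FPKM in long-term KO. Its log2 fold change was -6.51 (SE 0.10, adjusted p = 4.95e-09, limma), and the 3 groups did not overlap. *Penk*, the precursor of enkephalins, fell in the same steps, from 136, 148 and 134 FPKM to 26.9, 25 and 24.9 FPKM and then to 3.39, 3.38 and 3.93 FPKM. *Dkk2*, a Wnt antagonist, had most of its change by day 5, from 21.7, 22.9 and 22.1 FPKM to 1.41, 1.42 and 1.23 FPKM, and stood at 0.616, 0.533 and 0.505 FPKM in long-term KO. Others changed late. *Fgfbp1*, a carrier of fibroblast growth factors, was at 30.8, 32.1 and 28.8 FPKM at 4OHT day 5 and at 0.750, 0.627 and 0.690 FPKM in long-term KO, a log2 fold change of -5.62 against untreated cells. *Wnt7b*, a Wnt ligand, was at 3.12, 3.70 and 3.06 FPKM at day 5 and at 0.0425, 0.0370 and 0.0498 FPKM in long-term KO, a log2 fold change of -4.85. *Il1rl1*, the receptor of interleukin 33, is abundant in these cells, with 293, 268 and 268 FPKM untreated and 14.3, 15.0 and 12.3 FPKM in long-term KO. *Cpa4*, *Fgf21*, *Angptl7*, *Slc14a1*, *Errfi1* and *Acpp* complete the 12, with log2 fold changes from -3.94 to -5.07.

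Some genes were listed at exactly 0 in a whole group, which can be a failed estimate of the assembly as well as a silent gene, and no fold change is given for them. In all, 11 genes were listed at 0 in the 3 untreated libraries and at 5 FPKM or more in every long-term KO library, and 8 the other way round. *Psph*, which makes serine, was listed at 70.4, 76.3 and 65.5 FPKM in untreated libraries and at 0 in all 6 libraries from 4OHT-treated cells. *Gnl3*, the nucleolar protein nucleostemin, was listed at 58.1, 59.8 and 60.1 FPKM in untreated libraries, at 62.7, 60.7 and 57.0 FPKM at day 5, and at 0 in the 3 long-term KO libraries. The non-coding *Epb41l4aos* was listed at 0 in all untreated and day 5 libraries and at 19.3, 23.1 and 24.5 FPKM in long-term KO. Of the genes tested, 368 had a 0 in some library, and without them 629 genes were called higher and 516 lower.

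The interferon response was still raised in long-term KO, at a lower level than at 4OHT day 5. Of the 80 interferon-induced genes listed, 54 had a value and 47 were tested. Of these, 26 were called higher and 2 lower, which is to be read against 7.76% and 6.39% of all genes, and 19 were not called. These 47 genes had a median log2 fold change of 1.17, beside 0.07 for all genes tested, and one of 3.12 at 4OHT day 5, beside 0.00. Against day 5, 30 of the 47 were called lower and 0 higher, with a median of -1.79. With a pseudocount of 1 FPKM in place of 0.1 the number called higher was 11, since many of these genes are low, and it was 15 among genes whose locus had the same ends as the named locus.

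*Irf7*, the interferon regulatory factor of the second wave (chromosome 7, 148449082 to 148452323, mm9), was at 0.411, 0.486 and 0.530 FPKM in untreated libraries, at 16.3, 19.2 and 17.7 FPKM at day 5, and at 4.28, 4.89 and 5.44 FPKM in long-term KO. The log2 fold change was 3.11 against untreated (SE 0.11, adjusted p = 2.03e-07, limma) and -1.85 against day 5 (adjusted p = 3.34e-06, limma), so that long-term KO stood between the other groups. *Usp18*, a protease that removes Isg15 from proteins and damps the receptor, was at 0.171, 0.216 and 0.152 FPKM in untreated cells, at 8.28, 8.07 and 7.05 FPKM at day 5 and at 2.08, 1.86 and 2.09 FPKM in long-term KO. *Oasl2*, of the 2'-5' oligoadenylate synthetase-like proteins, was at 0.422, 0.465 and 0.458 FPKM, then 30.4, 36.4 and 30.1 FPKM, then 4.30, 3.49 and 4.65 FPKM. Long-term KO lay between untreated cells and day 5 for both *Usp18* and *Oasl2*, without overlap. *Irf7* was the only called gene among the 17 interferon regulators and receptors tested, whose median was 0.38. *Irf9* had no value of its own that could be tested.

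Other antiviral genes had come closer to the untreated level, and the following were chosen after their values were seen. *Xaf1*, an interferon-induced regulator of cell death, was at 28.4, 19.5 and 22 FPKM at day 5 and at 2.00, 1.85 and 1.87 FPKM in long-term KO, beside 2.31, 2.05 and 2.03 FPKM in untreated cells. *Zbp1*, a sensor of left-handed nucleic acids, was at 11.1, 12 and 10.9 FPKM at day 5 and at 0.335, 0.631 and 0.374 FPKM in long-term KO, a range that meets the untreated one of 0.133 to 0.362 FPKM. *Ifit1*, which binds foreign RNA caps, was at 83.1, 85.9 and 79.6 FPKM at day 5, at 7.96, 8.02 and 7.55 FPKM in long-term KO and at 2.49, 2.18 and 1.87 FPKM in untreated cells. It was called higher, as were the RNA sensors *Ifih1* and *Dhx58*, with log2 fold changes of 1.17 and 1.03. The 2 members called lower were *Slfn5* and *Pnpt1*, with log2 fold changes of -1.08 and -1.03. Both lie on chromosome 11, and with its median subtracted the values were -0.84 and -0.79 and both calls were lost.

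A small set of genes of the response kept the level of day 5 or passed it. *Lgals9*, the sugar-binding protein galectin 9 (chromosome 11, 78776481 to 78798426, mm9), was at 1.84, 2.27 and 2.02 FPKM in untreated libraries, at 16.2, 15.7 and 16.5 FPKM at day 5, and at 23.3, 21.1 and 22.8 FPKM in long-term KO. All 3 long-term KO libraries were above all day 5 libraries, by a log2 fold change of 0.47 (adjusted p = 0.000752, limma), which is below the limit of 2-fold for a call. The peptide transporters *Tap1* and *Tap2* and the immunoproteasome subunit *Psmb9*, which supply MHC class I with peptides and lie next to each other on chromosome 17, were called higher than in untreated cells, with log2 fold changes of 2.53, 2.54 and 2.54. *Tap2* was at 1.01, 0.911 and 1.08 FPKM, then at 4.90, 4.75 and 4.85 FPKM, then at 6.21, 5.95 and 6.63 FPKM. *Tap1* was at 1.32, 1.63 and 1.39 FPKM, then at 7.61, 8.09 and 8.23 FPKM, then at 9.47, 8.38 and 8.63 FPKM. Their neighbour *Psmb8* stood below day 5, at 8.96, 10.7 and 8.67 FPKM against 18.3, 19.96 and 17.3 FPKM. These 4 were the only called genes of the 10 tested in antigen processing. *Psme1*, *Psme2* and *H2-T23* had log2 fold changes of -0.09, -0.17 and 0.21 and were not called.

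**Figure D2:**
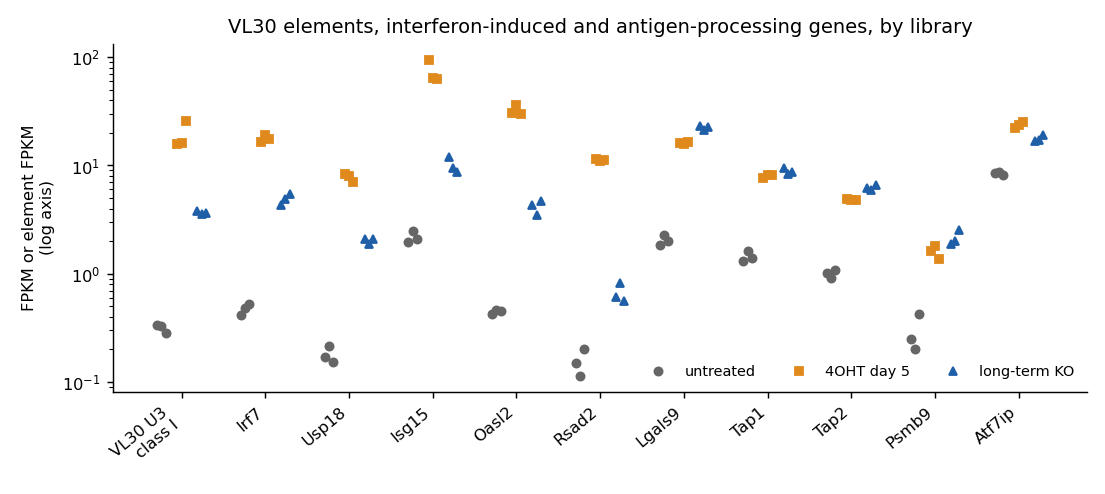
FPKM (for VL30 U3 class I, the FPKM over its elements) on a log axis for VL30 elements, interferon-induced genes, antigen-processing genes and *Atf7ip*; each point is 1 library, with 3 per group. Long-term KO points lie between untreated and 4OHT day 5 for *Irf7* (4.28 to 5.44 FPKM) and *Oasl2* (3.49 to 4.65 FPKM), and above day 5 for *Lgals9* (21.1 to 23.3 FPKM) and *Tap2* (5.95 to 6.63 FPKM).

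The promoters of genes that differ in how much of the response remained are shown from RefSeq (GRCm38.p6), 250 bases before to 50 after the start, on the strand of the gene. *Isg15* is shown for the genes well below day 5, since it was at 94.6, 63.7 and 63.4 FPKM at day 5 and at 12, 9.49 and 8.62 FPKM in long-term KO, and *Lgals9* for those above it. *Isg15* was chosen after its values were seen. Capitals mark matches to the interferon-stimulated response element searched as a pair of GAAA half-sites separated by 2 bases of any kind, on both strands and with overlaps allowed.
Isg15 (chr4:156200769-156201068, minus strand): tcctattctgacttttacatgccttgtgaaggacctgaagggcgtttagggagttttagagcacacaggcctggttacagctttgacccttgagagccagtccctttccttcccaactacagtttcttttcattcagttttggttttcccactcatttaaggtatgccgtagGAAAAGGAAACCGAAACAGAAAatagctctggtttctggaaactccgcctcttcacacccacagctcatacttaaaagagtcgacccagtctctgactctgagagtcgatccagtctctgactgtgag
Lgals9 (chr11:78984875-78985174, minus strand): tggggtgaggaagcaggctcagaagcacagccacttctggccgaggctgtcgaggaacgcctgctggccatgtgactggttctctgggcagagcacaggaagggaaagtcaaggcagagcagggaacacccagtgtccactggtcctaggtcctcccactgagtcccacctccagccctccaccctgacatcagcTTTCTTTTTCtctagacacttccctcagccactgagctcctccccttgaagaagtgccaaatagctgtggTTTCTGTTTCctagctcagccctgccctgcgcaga
The promoter of *Isg15* holds 3 overlapping matches and that of *Lgals9* 2 separate ones. The letters occur in 3.44% of the 32851 promoters of the table. Counted by gene, as below, 3.99% of its 27025 genes hold them. Of the listed interferon-induced genes with a promoter in the table, 34 of 61 hold them. Among those tested, they were found in 9 of the 16 called higher in long-term KO and in 8 of the 19 not called. A match is a description of the sequence and not a measured binding site.

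VL30 class I elements, which rose at 4OHT day 5, were still above the untreated level. These VL30 elements with a U3 region of class I, 71 elements in the study's list, gave 0.339, 0.331 and 0.283 FPKM in untreated libraries, 15.8, 16.1 and 26.0 FPKM at day 5 and 3.79, 3.57 and 3.66 FPKM in long-term KO. The log2 fold change was 3.18 against untreated (SE 0.18, adjusted p = 2.16e-06, limma) and -2.32 against day 5 (adjusted p = 1.35e-05, limma), and the 3 groups did not overlap. The size of the difference from day 5 depends on how loci are given to elements. Where at least 90% of a locus had to lie inside the element, in place of 50%, class I was at 1.17, 1.18 and 1.32 FPKM at day 5 and at 1.31, 1.34 and 1.01 FPKM in long-term KO. The log2 fold change against day 5 was then -0.01 (adjusted p = 0.943, limma) and that against untreated 2.29. The stricter limit kept 22 of 55 class I loci at day 5 and 45 of 64 in long-term KO. Element #63, with loci at least 97.6% inside in both groups, was lower all the same. It was at 16.7, 17.0 and 16.7 FPKM at day 5 and at 1.56, 1.57 and 1.61 FPKM in long-term KO. In long-term KO, 25 of the 71 elements had an assembled locus in some library and 17 in all 3. An element without an assembled locus need not be silent, because the aligner kept 1 position for a read with several hits.

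With the limit of 50%, the elements did not all keep the same share of the day 5 level. Among 12 elements with a locus in all day 5 and all long-term KO libraries, the 9 without a proline tRNA primer-binding site (PBS-pro) were 7.82 to 16 times higher at day 5 than later (median 9.43). The 3 with PBS-pro, the site that the KRAB zinc finger protein Zfp809 binds, were 1.27 to 3.06 times higher, with a median of 1.37. Element #67 on chromosome 19, without PBS-pro, went from 154, 159 and 155 FPKM at day 5 to 12, 11.7 and 12 FPKM. Its loci ran past the element at day 5, where 74.8% to 83.0% of their length lay inside, against 96.3% to 100% in long-term KO. Element #66 on the same chromosome, with PBS-pro, went from 29.0, 29.4 and 28.2 FPKM to 21.7, 20.4 and 21.2 FPKM. The ranges of the 2 kinds of element do not meet, but they were compared as they stood, with 3 elements in one kind, and no test was made. An element outside this set, #48, with PBS-pro, went the other way, from 0.588, 0.561 and 0.556 FPKM to 0, 0.0530 and 0.0542 FPKM. Element #13, also with PBS-pro, was higher than at day 5, with 4.30, 4.35 and 4.45 FPKM in long-term KO and 0.0835, 0 and 0 FPKM at day 5. Element #38 alone held 31.6% of the class I signal in long-term KO, at 52.3, 49.3 and 51.2 FPKM against 6.37, 7.31 and 6.32 FPKM in untreated cells. At day 5 it was assembled apart from its neighbour *Dhx40* only in replicate 3, the library with the class I value of 26.0 FPKM. Without #38 the class I log2 fold change was 3.30 against untreated and -2.64 against day 5.

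Other ERV families were lower in signal. VL30 class III, at 0.0106, 0.0148 and 0.0132 FPKM in untreated libraries, was at 0.346, 0.380 and 0.334 FPKM at day 5 and at 0.0823, 0.0611 and 0.0630 FPKM in long-term KO. It was 0.58 above untreated on the log2 scale, which was not called (adjusted p = 0.0463, limma), and its log2 fold change against day 5 was -1.43. Class III gave 97.4 to 131 fragments in untreated and 527 to 715 in long-term KO libraries, all below 0.1 FPKM, so the value depends on the pseudocount. With 0.01 it was 1.78 (adjusted p = 0.0176, limma), which passes the limits of a call. With 1 it was 0.08, and with quantile normalization -0.24. VL30 class IV was called higher by 1.10 on the log2 scale (adjusted p = 0.0346, limma), at 0.213, 0.312 and 0.189 FPKM against 0.0662, 0.0515 and 0.0502 FPKM. The call was lost whenever a single untreated or long-term KO library was left out (adjusted p = 0.0502 to 0.108, limma). It was also lost with a pseudocount of 1, at 0.23, and with quantile normalization, at 0.17. Only 1 of the 25 class IV elements had a locus in each untreated library. MMERVK10C, a family of the endogenous retrovirus K group, gave 66.9 to 85.9 fragments in untreated and 2915 to 3076 in long-term KO libraries, with a log2 fold change of 0.60 that was not called (adjusted p = 0.0958, limma). The pseudocount holds that value down, since the family's FPKM is below 0.1 in every library. RLTR4 gave 320 to 587 fragments in untreated libraries, 415 to 514 at day 5 and 1316 to 1348 in long-term KO, a difference of 0.58 on the log2 scale that was not called (adjusted p = 0.0925, limma). Class II and IAPEz elements were near 0 FPKM in all groups.

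Calls among the genes of the silencing machinery were few, as they were over all genes. Of 22 genes of H3K9 methylation and HP1 silencing tested, 1 was called higher and 0 lower, with a median log2 fold change of 0.03. The called gene was *Atf7ip*, a partner of Setdb1 that lies on chromosome 6, at 8.5, 8.78 and 8.24 FPKM in untreated cells, 22.3, 23.8 and 25.3 FPKM at day 5 and 16.9, 17.2 and 19 FPKM in long-term KO (log2 fold change 1.04, adjusted p = 2.64e-06, limma). With the median of its chromosome subtracted the log2 fold change was 0.58, and the call was lost. *Trim28* had a log2 fold change of -0.07 and *Zfp809* one of 0.12, both within the spread between libraries. None of 8 genes of DNA methylation and none of 14 Polycomb genes was called, with medians of 0.33 and 0.14. *Uhrf1*, which guides maintenance methylation, had a log2 fold change of -0.04, and *Ezh2*, the methyltransferase of Polycomb, one of 0.50. *Dnmt1* had no value of its own that could be tested. Germline genes are usually held silent in fibroblasts, and only 4 of the 26 with a value were tested, with 3 called higher. A gene silent in untreated cells passes the filter only where another group expresses it, so this count says little about germline genes as a set. The summed FPKM of the 26 was 314 to 382 in untreated and 278 to 385 in long-term KO libraries. *Stag3*, a meiotic cohesin subunit, was at 0.656, 0.961 and 1.58 FPKM, then at 3.90, 3.95 and 4.22 FPKM, then at 4.99, 4.58 and 5.27 FPKM in long-term KO. *Tdrd9*, a helicase of the piRNA pathway, was at 2.42, 2.68 and 2.62 FPKM at day 5 and at 0.471, 0.517 and 0.737 FPKM in long-term KO, beside at most 0.00490 FPKM in untreated cells.

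Genes of amino acid supply that Atf4 induces under stress were lower. Of 20 tested, 16 were called lower and 0 higher, beside 6.39% and 7.76% of all genes, with a median log2 fold change of -1.55, and the other 4 had log2 fold changes from -0.64 to -0.90. Among the 19 that were above 0 in all 9 libraries, 15 were called lower. At 4OHT day 5 the median was -0.92. *Chac1*, which degrades glutathione, was at 41.5, 43.6 and 42.3 FPKM, then at 18.5, 18.7 and 18.6 FPKM, then at 4.59, 4.93 and 4.68 FPKM in long-term KO. Its log2 fold change was -3.14 (SE 0.04, adjusted p = 1.57e-09, limma). *Trib3*, a pseudokinase that feeds back on Atf4, went from 24.5, 25.1 and 24.9 FPKM to 2.55, 2.58 and 2.12 FPKM, and *Slc7a11*, the cystine carrier, from 4.16, 4.04 and 3.90 FPKM to 0.385, 0.398 and 0.415 FPKM. Both had stood between these levels at day 5. *Asns*, asparagine synthetase, *Shmt2* and *Phgdh*, enzymes of serine and glycine metabolism, had log2 fold changes of -1.89, -1.96 and -1.11.

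The promoters of *Chac1* and *Slc7a11* are shown as examples, a gene with 1 match to the Atf4 response element and another with 2, and both are called lower. They are from RefSeq (GRCm38.p6), on the strand of the gene, with matches to TGATGNAA on either strand in capitals.
Chac1 (chr2:119350992-119351291, plus strand): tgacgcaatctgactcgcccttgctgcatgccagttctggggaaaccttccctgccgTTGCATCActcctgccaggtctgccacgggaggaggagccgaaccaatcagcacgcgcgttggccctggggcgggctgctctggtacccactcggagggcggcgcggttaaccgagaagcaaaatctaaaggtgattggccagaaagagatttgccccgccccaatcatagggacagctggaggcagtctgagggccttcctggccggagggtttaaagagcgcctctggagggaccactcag
Slc7a11 (chr3:50443564-50443863, minus strand): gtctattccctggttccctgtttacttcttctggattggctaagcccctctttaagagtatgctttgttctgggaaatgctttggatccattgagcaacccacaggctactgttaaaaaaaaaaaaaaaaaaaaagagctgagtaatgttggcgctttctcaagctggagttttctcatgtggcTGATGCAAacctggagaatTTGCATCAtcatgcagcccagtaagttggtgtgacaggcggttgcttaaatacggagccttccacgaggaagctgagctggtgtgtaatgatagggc
The match occurs once in *Chac1* and at 2 places in *Slc7a11*. The letters occur in 3.97% of all promoters of the table and, counted by gene, in 4.51% of its 27025 genes. Of the listed genes with a promoter in the table, 10 of 24 hold them, and among those tested they were found in 6 of the 15 called lower and in 2 of the 3 not called.

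Feedback and immediate early genes of the mitogen-activated protein kinase (MAPK) pathway were also mostly lower, and this was not so at 4OHT day 5. Of 27 tested, 14 were called lower and 3 higher, beside 6.39% and 7.76% of all genes, with a median log2 fold change of -1.08 in long-term KO and of -0.06 at day 5. *Dusp6*, a phosphatase that ERK induces and that switches ERK off, was at 28.6, 27.8 and 28.9 FPKM in untreated cells, at 28.9, 29.9 and 30.0 FPKM at day 5 and at 9.73, 9.60 and 9.06 FPKM in long-term KO. It was chosen after its values were seen. *Etv4* and *Etv5*, Ets factors downstream of ERK, had log2 fold changes of -3.39 and -2.21, and *Myc* one of -2.42. *Myc* was at 25.4, 29.3 and 26.7 FPKM in untreated and at 4.75, 4.98 and 5.20 FPKM in long-term KO cells. The inhibitors *Spry1*, *Spry2*, *Spry4*, *Spred2*, *Dusp4* and *Dusp5* were called lower too, with log2 fold changes from -1.08 to -1.75. The 3 called higher were *Fos*, *Fosb* and *Etv1*. *Fos*, a subunit of the AP-1 factor, was at 31.1, 32.2 and 29.1 FPKM in untreated and at 92.0, 87.6 and 113 FPKM in long-term KO cells. *Ets1*, an Ets factor not tied to acute induction, had a log2 fold change of -0.02. With only genes whose locus had the same ends as the named locus, 1 gene of this list was called lower, as few of its genes were left.

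Growth factors, cytokines and their receptors changed in both directions. Of 29 growth factors and receptors tested, 6 were called higher and 10 lower, with a median of -0.50. *Hgf*, the ligand of Met, went from 2.21, 2.03 and 2.37 FPKM to 0.0688, 0.0356 and 0.0786 FPKM, a log2 fold change of -3.85. *Angptl7*, an angiopoietin-like secreted protein, was among the most abundant of these genes at 490, 452 and 434 FPKM in untreated cells and was at 23.7, 22.7 and 21.7 FPKM in long-term KO. The EGF receptor ligands *Areg*, *Hbegf* and *Ereg* had log2 fold changes of -3.33, -2.42 and -2.07. *Pdgfrb*, a platelet-derived growth factor receptor that marks mesenchymal cells, rose from 5.02, 5.13 and 4.76 FPKM to 34.9, 35.0 and 35.7 FPKM, a log2 fold change of 2.80 (SE 0.05, adjusted p = 7.49e-09, limma). *Fgf10*, a mesenchymal ligand, rose from 0.289, 0.304 and 0.336 FPKM to 4.60, 4.08 and 4.00 FPKM. Neither had risen at day 5, where *Pdgfrb* was at 3.67, 4.04 and 4.10 FPKM and *Fgf10* at 0.302, 0.305 and 0.287 FPKM. Of 13 chemokines and cytokines tested, 6 were called lower and 0 higher, with *Cxcl14* at 55.9, 54.7 and 54.0 FPKM in untreated and 10.5, 10.5 and 10.9 FPKM in long-term KO cells. The chemokine *Cxcl10*, picked with its values known, is not counted in this list and was called higher, with a log2 fold change of 1.20. *Ccl9*, called lower, lies on chromosome 11 and lost its call with the median of that chromosome subtracted (-0.96).

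**Figure D3:**
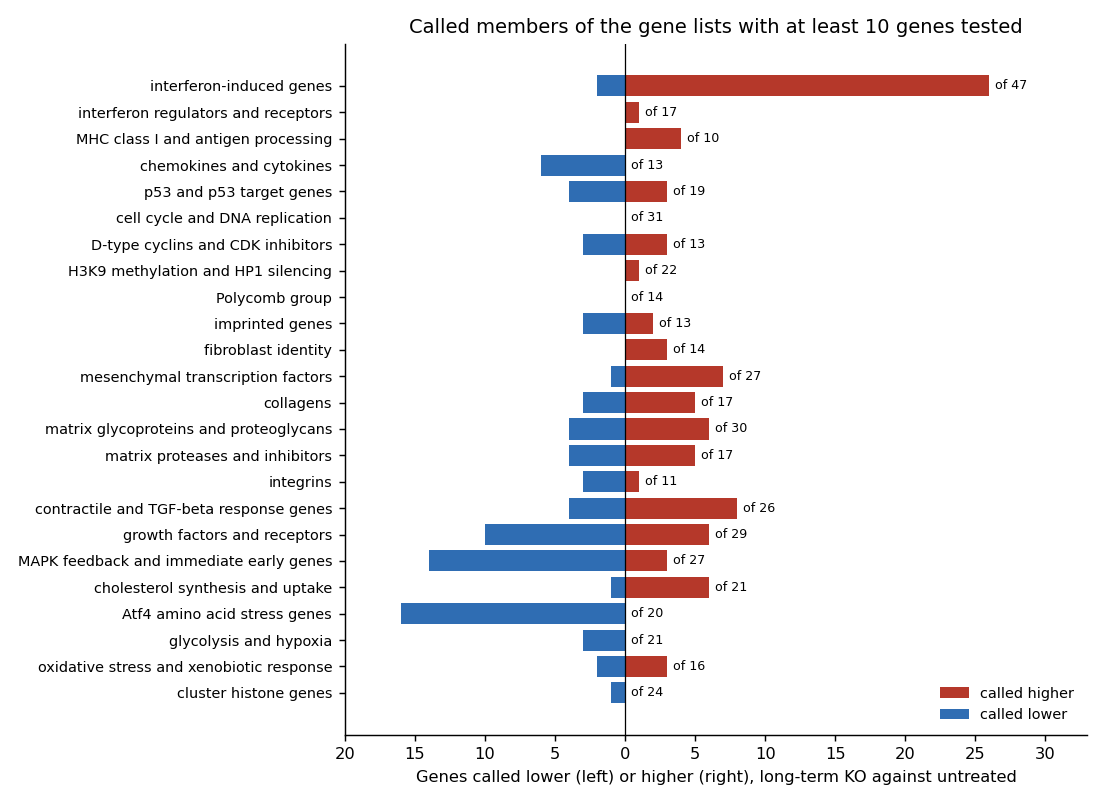
Number of genes called lower (bars to the left) and higher (bars to the right) in long-term KO against untreated for the gene lists with at least 10 genes tested, with the number tested beside each bar. The longest bars are 26 of 47 interferon-induced genes called higher, 16 of 20 Atf4 genes called lower and 14 of 27 MAPK genes called lower, beside 7.76% of all genes called higher and 6.39% called lower.

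Abundant fibroblast genes were not called, while part of the matrix genes and mesenchymal transcription factors were called in either direction. *Vim*, *Col3a1*, *Col1a2*, *Sparc* and *Fn1* were at 811 to 880, 233 to 248, 544 to 553, 485 to 582 and 103 to 110 FPKM in long-term KO, and none was called against untreated cells. Of 14 fibroblast genes tested, 3 were called higher and 0 lower. *Postn*, the matrix protein periostin, was 1 of them, at 7.74, 7.51 and 6.66 FPKM in untreated cells, 0.752, 0.652 and 0.771 FPKM at day 5 and 26.9, 27.8 and 26.6 FPKM in long-term KO, so that the acute and the long-term group lay on opposite sides of the untreated one. *Ogn*, the proteoglycan osteoglycin, had the same order, at 22.1, 23.4 and 24.0 FPKM, then 8.55, 9.71 and 9.46 FPKM, then 220, 198 and 234 FPKM. Its long-term log2 fold change was 3.22 (SE 0.07, adjusted p = 2.23e-08, limma) and that at day 5 was -1.32 (adjusted p = 8.55e-06, limma).

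Of 17 collagens, 5 were called higher and 3 lower, with a median of 0.47. *Col12a1*, which sits on collagen fibrils, rose from 1.75, 1.86 and 1.80 FPKM to 25.1, 25.4 and 27.1 FPKM, and the basement membrane chains *Col4a1* and *Col4a2* had log2 fold changes of 1.35 and 1.14. *Adamts1*, a protease of proteoglycans, rose from 6.61, 6.29 and 6.19 FPKM to 91.4, 91.3 and 96.7 FPKM, and its neighbour on chromosome 16, *Adamts5*, from 3.75, 3.8 and 3.92 FPKM to 19.2, 20.4 and 19.2 FPKM. *Spp1*, osteopontin, went from 408, 397 and 365 FPKM to 70.9, 70.0 and 67.1 FPKM. Of 30 matrix glycoproteins and proteoglycans, 6 were called higher and 4 lower. Of 17 matrix proteases and inhibitors 5 were higher and 4 lower, and of 11 integrins 1 and 3. Among 26 contractile and TGF-beta response genes 8 were called higher and 4 lower, with *Smad6*, an inhibitor of BMP signalling, at 3.01 and *Ctgf*, a matricellular target, at -2.61 on the log2 scale.

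Of 27 mesenchymal transcription factors, 7 were called higher and 1 lower, with a median of 0.44, and that median was -0.27 at day 5. *Prrx2*, a homeobox factor of limb and face mesenchyme, rose from 6.44, 8.12 and 7.65 FPKM to 29.5, 29.3 and 32.7 FPKM. *Alx4* rose from 2.23, 2.26 and 2.32 FPKM to 13.4, 12.8 and 12.6 FPKM, and *Foxf2*, a forkhead factor, from 1.5, 1.66 and 1.58 FPKM to 15.8, 11.2 and 11.5 FPKM. *Lmx1b*, a factor of dorsal limb pattern, was the 1 called lower, from 2.66, 3.37 and 2.95 FPKM to 0.534, 0.511 and 0.589 FPKM. Only 4 Hox genes were tested. *Hoxb13* and *Hoxc13*, which act at the posterior end of the body, were called higher, with log2 fold changes of 3.59 and 2.02, and *Hoxb7* lower, with -1.004.

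Genes of cholesterol synthesis were more often called higher than lower. Of 21 genes tested, 6 were called higher and 1 lower, with a median log2 fold change of 0.65 and of 0.04 at day 5. *Hmgcs1*, an early enzyme of the pathway, rose from 47.6, 48.7 and 46.4 FPKM to 173, 183 and 178 FPKM. *Idi1* rose from 43.6, 44.5 and 40.9 FPKM to 137, 132 and 149 FPKM. The call of *Hsd17b7* rests on the untreated libraries 1 and 3, which list it at 0, while untreated library 2 has 9.19 FPKM and long-term KO 11.3, 12 and 11.7 FPKM. Glycolysis and hypoxia genes had 3 of 21 called lower and 0 higher, with a median of -0.46 that was -0.40 at day 5. *Gsta4*, a glutathione transferase, was at 26.7, 25.2 and 24.7 FPKM, then at 357, 342 and 328 FPKM at day 5 and at 170, 167 and 164 FPKM in long-term KO.

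None of 31 cell cycle and DNA replication genes was called, and their median log2 fold change was 0.10. *Top2a*, which untangles DNA at division, was at 235, 237 and 212 FPKM in untreated and 180, 184 and 183 FPKM in long-term KO cells. Of the genes that govern entry into the cycle, 3 of 13 D-type cyclins and inhibitors of cyclin-dependent kinases were called higher and 3 lower. *Ccnd1*, *Ccnd2* and their kinase *Cdk6* had log2 fold changes of -1.3, -1.57 and -2.26, and the inhibitors *Cdkn1b*, *Cdkn2d* and *Cdkn2c* 1.75, 1.42 and 1.09. *Cdkn1b* was at 13.5, 14.3 and 14.0 FPKM in untreated and at 49.4, 49.9 and 42.7 FPKM in long-term KO cells. Of 19 genes of p53 and its targets, 3 were called higher and 4 lower, with a median of 0.07. Imprinted genes, of which 13 were tested, had 2 called higher and 3 lower, with *Mest* at 74.7, 75.7 and 68.9 FPKM in untreated and 12.4, 13.9 and 12.1 FPKM in long-term KO, and *Peg3* at 2.44, 2.54 and 2.55 and at 11.2, 11.3 and 11.3 FPKM.

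*Xist*, the RNA that coats the inactive X chromosome, appeared in long-term KO. It was at 0.00128, 0.00357 and 0 FPKM in untreated libraries, at 0.00131, 0.00397 and 0.00140 FPKM at day 5 and at 3.47, 3.31 and 3.67 FPKM in long-term KO (log2 fold change 5.14, SE 0.15, adjusted p = 7.05e-08, limma). The Y-linked genes *Ddx3y*, *Eif2s3y*, *Kdm5d*, *Uty*, *Usp9y* and *Zfy1* were listed at 0 in all 9 libraries. The median log2 ratio of the 284 X-linked genes tested was -0.02, -0.03 and -0.05 in the 3 long-term KO libraries. Values of the 3 libraries agreed closely, and none of the untreated or day 5 libraries reached 0.004 FPKM.

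Expression also shifted over whole chromosomes. For each library, the median was taken over the genes of a chromosome of the log2 ratio to the untreated mean. In the 3 long-term KO libraries this median was 0.47, 0.47 and 0.43 for chromosome 6, 0.44, 0.44 and 0.44 for chromosome 16, 0.40, 0.41 and 0.38 for chromosome 13, and 0.31, 0.33 and 0.28 for chromosome 18. It was -0.22, -0.27 and -0.26 for chromosome 11. The medians of single untreated libraries lay between -0.05 and 0.03 for every chromosome, so that these shifts exceed the spread between libraries by far. In all, 6 chromosomes lay at least 0.2 from 0 in all 3 long-term KO libraries, the sixth being chromosome 3 with 0.22, 0.25 and 0.22, on which *Setdb1* lies. Chromosome 10 differed, since it was at -0.13, -0.14 and -0.18 in long-term KO and already at the same depth at 4OHT day 5. No statistical test was made over genes of a chromosome, which are not replicates, and an exact permutation test of 3 against 3 libraries cannot go below 0.1.

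**Figure D4:**
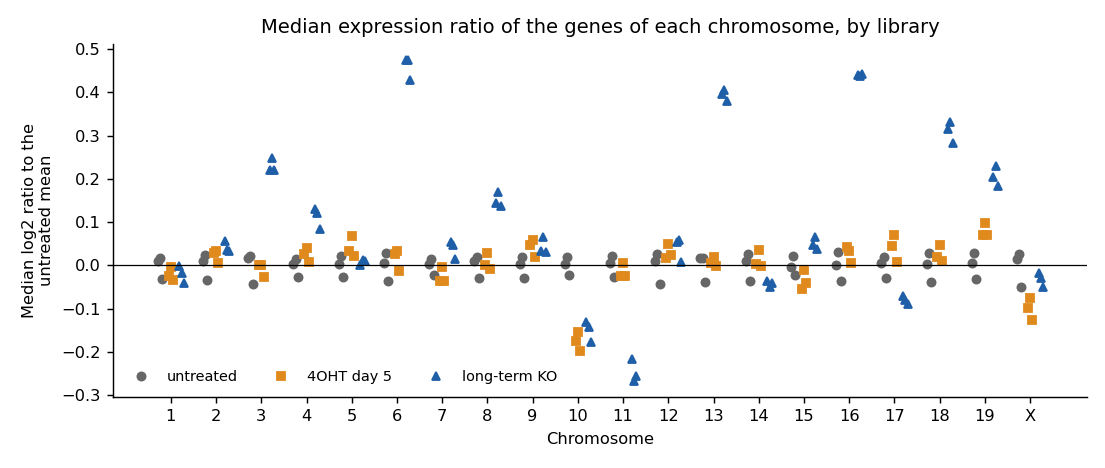
Median log2 ratio to the untreated mean over the genes of each chromosome; each point is 1 library, with 3 libraries per group. Long-term KO points of chromosomes 6, 13, 16 and 18 lie at 0.28 to 0.47 and those of chromosome 11 at -0.22 to -0.27, while untreated points lie at -0.05 to 0.03.

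The shifts ran along the chromosomes in blocks. Over 217 runs of about 40 neighbouring genes, 47 had a median above 0.2 in all 3 long-term KO libraries and 12 one below -0.2. At 4OHT day 5 these numbers were 0 and 6. On chromosome 4 the 10 runs up to position 133054465 (mm9) had long-term KO medians between -0.15 and 0.14. The 4 runs from position 133217340 to the end had medians of 0.35 to 0.55, so that the level stepped up between 2 neighbouring runs. On chromosome 11 the runs with the lowest medians lay from position 78156997 to 94076806, at -0.54, -0.56 and -0.46 in the first and at -0.57, -0.57 and -0.33 in the second. Copy number was not measured, and its part in these shifts was not tested.

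**Figure D5:**
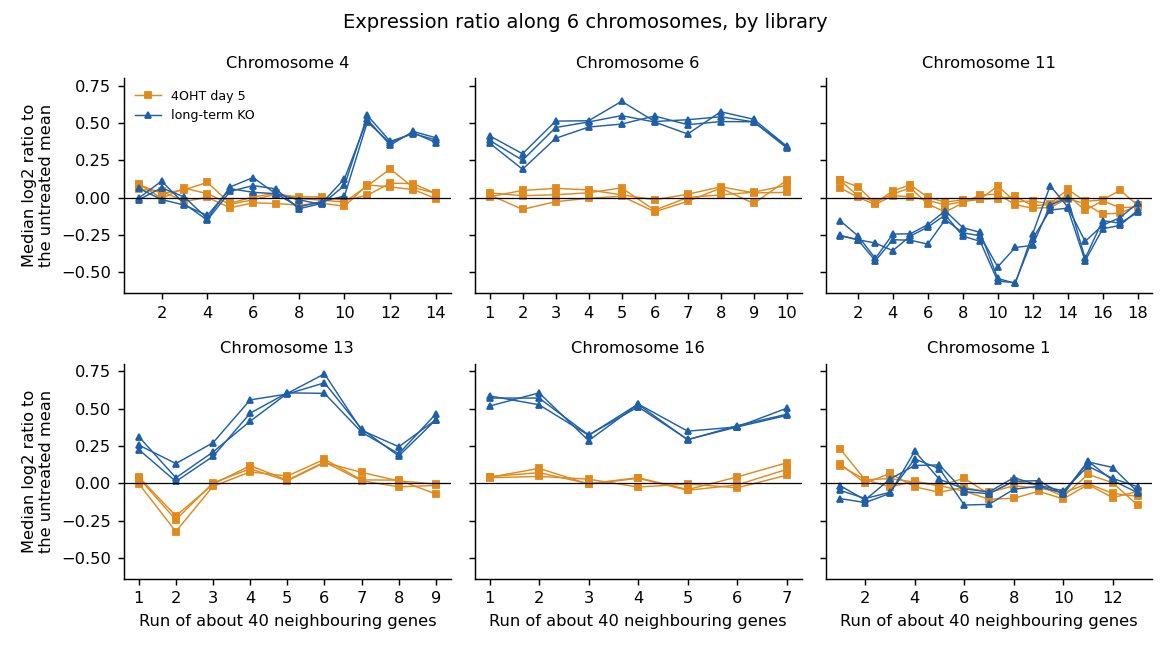
Median log2 ratio to the untreated mean in runs of about 40 neighbouring genes along 6 chromosomes, drawn in the order of the runs; each line is 1 library of 4OHT day 5 or long-term KO. The long-term KO lines of chromosome 4 stay between -0.15 and 0.14 over 10 runs and lie at 0.35 to 0.55 in the last 4, those of chromosome 6 lie above 0 throughout, and chromosome 1 is drawn as one whose median over all its genes is near 0.

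The shifts move with the calls, as both come from the same fold changes, and the chromosomes named next were taken for their medians. On chromosomes 6, 13, 16 and 18, 176 of 1274 genes tested were called higher, 13.8%, beside 6.72% on all other chromosomes. On chromosome 11, 78 of 720 were called lower and 25 higher. With the median of the chromosome subtracted, a choice made after seeing the data, 524 genes were called higher and 568 lower, in place of 674 and 555. Among the genes named above, *Cdkn1b*, *Atf7ip*, *Ezh2* and *Mest* lie on chromosome 6, *Adamts1* and *Etv5* on chromosome 16, and *Ogn*, *Fgf10* and *Idi1* on chromosome 13. On chromosome 11 lie *Slfn5*, *Pnpt1*, *Hoxb7*, *Spred2* and *Lgals9*. Of 214 called genes of the lists and named genes, 16 lost the call with the median subtracted, among them *Atf7ip*, *Slfn5*, *Pnpt1*, *Hoxb7*, *Spred2*, *Cdkn2c* and *Col4a2*. A median over a whole chromosome does not follow the blocks. On chromosome 4 its mean over the long-term KO libraries was 0.11, while the last runs, given above, lay higher. Calls of genes inside such blocks can therefore still hold part of the shift. The fold changes of *Adamts1*, *Ogn* and *Fgf10* are far above the medians of their chromosomes, whereas that of *Ezh2*, 0.50, is close to its own.

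Of other cell types, most markers were low. The 12 haematopoietic markers with a value summed to 1.21 to 1.56 FPKM in untreated and 1.87 to 2.24 FPKM in long-term KO libraries, and the only one tested, *Cd14*, was not called. Epithelial markers summed to 4.65 to 5.39 FPKM in untreated libraries, 13.9 to 17.1 FPKM at day 5 and 7.87 to 9.25 FPKM in long-term KO. Endothelial markers summed to 6.12 to 7.68 FPKM in untreated and 8.98 to 11.3 FPKM in long-term KO libraries, muscle markers to 0.323 to 0.522 FPKM in the latter, and neural and glial markers to 61.2 to 64.5 and 43.9 to 45.1 FPKM. Of the epithelial markers, *Krt19* was called higher and *Epcam* and *Cldn3* lower. In cartilage, bone and fat markers the sum fell from 369 to 412 FPKM to 70.1 to 73.8 FPKM, nearly all of it *Spp1*. The part of any other cell type in the results was not tested. In bulk RNA, fewer cells of a type and less RNA per cell cannot be told apart. *Nanog*, of the pluripotency markers, was called higher at 1.18, 1.13 and 1.22 FPKM against 0.287, 0.209 and 0.297 FPKM, while *Klf4* was called lower.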

How the data were processed

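Total RNA of *Setdb1* cKO iMEFs was depleted of rRNA and sequenced. Per the labels and the methods of the study, TopHat2 2.0.12 was used for alignment to mm9, where a read with several hits kept 1 position, and Cufflinks assembled the libraries singly, guided by RefSeq. The values the authors deposited are FPKM per locus with confidence intervals. Tables of the authors' own Cuffdiff comparisons hold fold changes, p-values and q-values and were not used. The strand setting of the kit is not given in the sources used here, so that antisense and overlapping genes, and near-identical copies, are uncertain. The labels give more than 2 weeks of culture after 4OHT, while the methods of the study state a shorter minimum.

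Loci were named by position from the named loci of the siRNA and inhibitor libraries and had to cover 95% of a gene. In those libraries the same name was recovered for at least 99.996% of loci, which is no separate test, since the names came from them. In the 9 total RNA libraries, 99.6% of 83345 loci with a RefSeq accession were given that accession's symbol or a synonym. Loci without an accession could not be checked in this way. Loci that share a symbol were summed, and Mir and Snor genes were left out. All 9 libraries were fitted with limma 3.58.1 (R 4.3.3) on log2(FPKM + 0.1), with group as the only term, trended variances, two-sided tests and Benjamini-Hochberg adjustment over all genes tested. A gene was tested at 1 FPKM or more in 3 libraries and called where it differed 2-fold with an adjusted p-value below 0.05. The fit was tested on simulated data for long-term KO against untreated with 8684 genes. Of 200 changed genes, 186 were called with the right sign, 89 of 100 at a log2 change of 1.3 and 97 of 100 at 2, with 0 others.

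Fragments of ERV elements were computed from the FPKM and the confidence interval, for unannotated loci with 50% or more of their length within an element, and were fitted with the genes. The depth was derived from the intervals of genes with a single exon. Genes named are the 12 with the highest and 12 with the lowest log2 fold change among called genes above 0 in all 6 libraries whose groups do not overlap, up to 4 members per list, those the study names, and up to 3 in each direction listed at 0 in a group. Any other gene is an example of a counted list or is said to have been picked with its values known. The 36 gene lists and the comparison were chosen with earlier results of these data known. Python 3.11.15 with numpy 2.4.6, pandas 2.3.3 and matplotlib 3.10.9 was used for the other steps. Alternatives covered the pseudocount, the filter, the scaling, the libraries in the fit, the replicate number, libraries left out, the fold limit and the naming of loci. ChIP, bisulfite and RT-qPCR data were not used here. Some items are not reported here.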

Additional observations from a re-analysis of the deposited data

How the results depend on the processing

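In long-term KO against untreated, 674 genes were higher and 555 lower, 1229 in all. The higher and total counts were 423 and 818 with a pseudocount of 1 and 395 and 765 with a limit of 5 FPKM. Without a fold limit they were 3318 and 5922, with 2604 lower. Among genes whose locus had the same ends as the named locus they were 236 and 442, with 206 lower, as fewer genes were tested. Against 4OHT day 5 the total of 1110 was 683 at 5 FPKM, 5793 without a fold limit and 406 with the same ends. At day 5 against untreated, the total of 287 was 469 without a filter, 176 at 5 FPKM, 3267 without a fold limit and 120 with the same ends. Interferon-induced genes called higher, 26 as reported, were 11 with a pseudocount of 1, 17 at 5 FPKM, 40 without a fold limit and 15 with the same ends. Atf4 genes called lower went from 16 to 10 and MAPK genes from 14 to 1 with the same ends. The 6 shifted chromosomes were 3 without a filter.

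Leaving out single libraries gave counts of 649 to 686 higher, 537 to 556 lower and 1200 to 1227 in all, 1089 to 1118 against day 5 and 281 to 295 at day 5. The log2 fold change of VL30 class I was 3.12 to 3.22, interferon-induced genes called higher 24 to 27, MAPK genes called lower 13 to 15, and shifted chromosomes 6 to 7. Same-numbered untreated and long-term KO libraries did not deviate together (correlations of -0.04, 0.00 and 0.02). Same-numbered libraries of day 5 and long-term KO had correlations of 0.08, -0.02 and 0.12, beside -0.13 to 0.05 for differently numbered ones. Whether these libraries are paired was not tested. With the replicate block 671 genes were higher and 552 lower, 1223 in all, with 1097 against day 5 and 280 at day 5. Quantile normalization gave 527 higher and 638 lower, and turned the log2 fold changes of VL30 class III to -0.24, MMERVK10C to -0.18, RLTR4 to -0.25, *Rbbp7* to 0.031 and *Zfp809* to -0.022; the cause was not tested. With the chromosome median subtracted, *Cdk1* turned to 0.039 and *Uhrf1* to 0.034. With single libraries left out, *Rbbp7* ranged from -0.13 to 0.023 and *Ets1* from -0.053 to 0.017. Of 2125 values of 133 named genes under these alternatives, 2080 kept their direction and their side of the threshold, 35 lost the call, 2 gained it and 8 turned. With loci at least 90% inside an element, the VL30 class I log2 fold change against day 5 was -0.01 in place of -2.32, as this limit leaves out most class I loci of day 5.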
